A study of Mus musculus with 24 samples.

Results

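Spared nerve injury was compared with a sham operation in the nucleus accumbens of mice that carried the control vector. The comparison used 12 of the 24 libraries of the study, 6 named SNI Gfp and 6 named Sham Gfp, chosen by the surgery and the vector that their labels give. SNI here is the tibial variant on the left sciatic nerve, in which part of the branches are injured and the rest spared, and it is a model of lasting neuropathic pain. The sham mice had the operation without injury to the nerves. All 12 libraries came from punches of both sides of accumbens that had received AAV8 with Egfp under the neuronal hSyn promoter on both sides, so the control group also carried a virus and a foreign protein in its neurons. The other 12 libraries carried Mef2c with Egfp and served only for the comparison of vectors and for the shared estimate of the spread. The mice were 8 to 9 weeks old and of the strains C57BL/6J or DBA/2J, and the labels tie no library to a strain or to a mouse. P-values therefore measure the spread between these libraries. The sequencing index ran from 19 to 24 in Sham Gfp and from 13 to 18 in SNI Gfp, so index and surgery cannot be told apart.

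The nucleus accumbens is the ventral part of the striatum and is built mainly of GABAergic medium spiny neurons, which express the dopamine receptor Drd1 with Tac1 and Pdyn, or Drd2 with Penk. It takes part in the motivational side of lasting pain. The gene lists with the most negative medians below belong to the interferon response and to immune cells. In the interferon response, sensors of foreign nucleic acid induce interferons, interferons act through receptors, JAK kinases and STAT and IRF factors, and these induce antiviral effectors, GTPases and antigen presentation. In the brain, microglia, astrocytes and vessel cells make much of this response. In bulk tissue, fewer cells of a type and less RNA per cell cannot be told apart.

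The tissue markers were present in every library. Drd1 lay between 96.6 and 232 CPM (counts relative to the scaled library size) in Sham Gfp and between 111 and 274 in SNI Gfp, and Penk between 440 and 631 against 492 and 796. Total counts were 28924194 to 34078177 in Sham Gfp and 28101826 to 36570108 in SNI Gfp. Several libraries stood apart. On most immune genes described below, SNI Gfp 4 and SNI Gfp 6 lay among or near the Sham Gfp libraries. SNI Gfp 1, 2, 3 and 5 lay below them, and Sham Gfp 3 was the lowest of its group on most of these genes. On some, SNI Gfp 3 reached the level of Sham Gfp 3, as on Vcam1, at 27.9 against 27.6 CPM. On the first principal component of all 24 libraries, SNI Gfp 4 and 6 lay at -54.0 and -67.4, next to Sham Gfp 1, 2, 4, 5 and 6 at -78.5 to -61.0, and the other SNI Gfp libraries at 16.7 to 39.8, next to the 12 Mef2c vector libraries at 15.7 to 39.3. Sham Gfp 3 was between them at -16.3. Apart from this axis, SNI Gfp 6 held choroid plexus RNA, SNI Gfp 3 smooth muscle and meningeal RNA, and SNI Gfp 4 the most cortical RNA, with values given below. A list of 10 genes known to differ between C57BL/6J and DBA/2J, several of them immune genes, had a mean log2 CPM of 3.67 to 4.46 in Sham Gfp. It was 2.75 to 3.29 in SNI Gfp 1, 2, 3 and 5, and 4.03 and 4.32 in SNI Gfp 4 and 6. Of its members, 6 had a lower mean in SNI Gfp (as 46.7% of all genes did) and 4 a higher mean. The median log2 fold change was -0.08. At an unadjusted p under 0.05, 2 were lower and 1 higher, so not every member followed the list mean. The part of strain in the results was not tested.

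With edgeR's quasi-likelihood test and Benjamini-Hochberg adjustment, 0 of 23738 genes (0.0%) passed an adjusted p of 0.05, the threshold for a call. At an unadjusted p under 0.05, 2928 genes (12.3%) differed, 2007 with a lower mean in SNI Gfp (8.45%) and 921 with a higher mean (3.88%). This split depended on the setting: it was 3224 lower and 3224 higher with limma-voom, 2424 and 2320 without Sham Gfp 3, and 2271 and 589 with library size alone. Just above the threshold, 372 genes had an adjusted p under 0.1, 344 of them lower, and 285 of these genes shared the value 0.0929. DESeq2 called 490 genes lower (2.06%) and 63 higher (0.265%), and limma-voom with quality weights called 1825 lower (7.69%) and 952 higher (4.01%). Of the 12 compared libraries, the limma-voom weights were smallest for Sham Gfp 3 (0.338), SNI Gfp 4 (0.492) and SNI Gfp 6 (0.549). The other 9 had 0.677 to 1.70. SNI Gfp 3, which stood apart by its smooth muscle and meningeal RNA, had the largest, 1.70. Without SNI Gfp 6, edgeR called 1246 genes lower (5.22%) and 146 higher (0.611%), and without Sham Gfp 3 it called 729 lower (3.05%) and 151 higher (0.631%). Leaving out any of the other 10 libraries gave 0 or 1 call. The count of calls thus depended on those libraries and on the tool, and no gene is described below as changed by the main test. The median log2 fold change over all genes was 0.01. At least 4 of the 6 SNI Gfp libraries lay below the lowest Sham Gfp library in 1761 genes (7.42%) and above the highest in 874 (3.68%). Counts of list members below are to be read beside the shares over all genes in this paragraph. At an unadjusted p under 0.05 these were 8.45% lower and 3.88% higher.

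**Figure D1:**
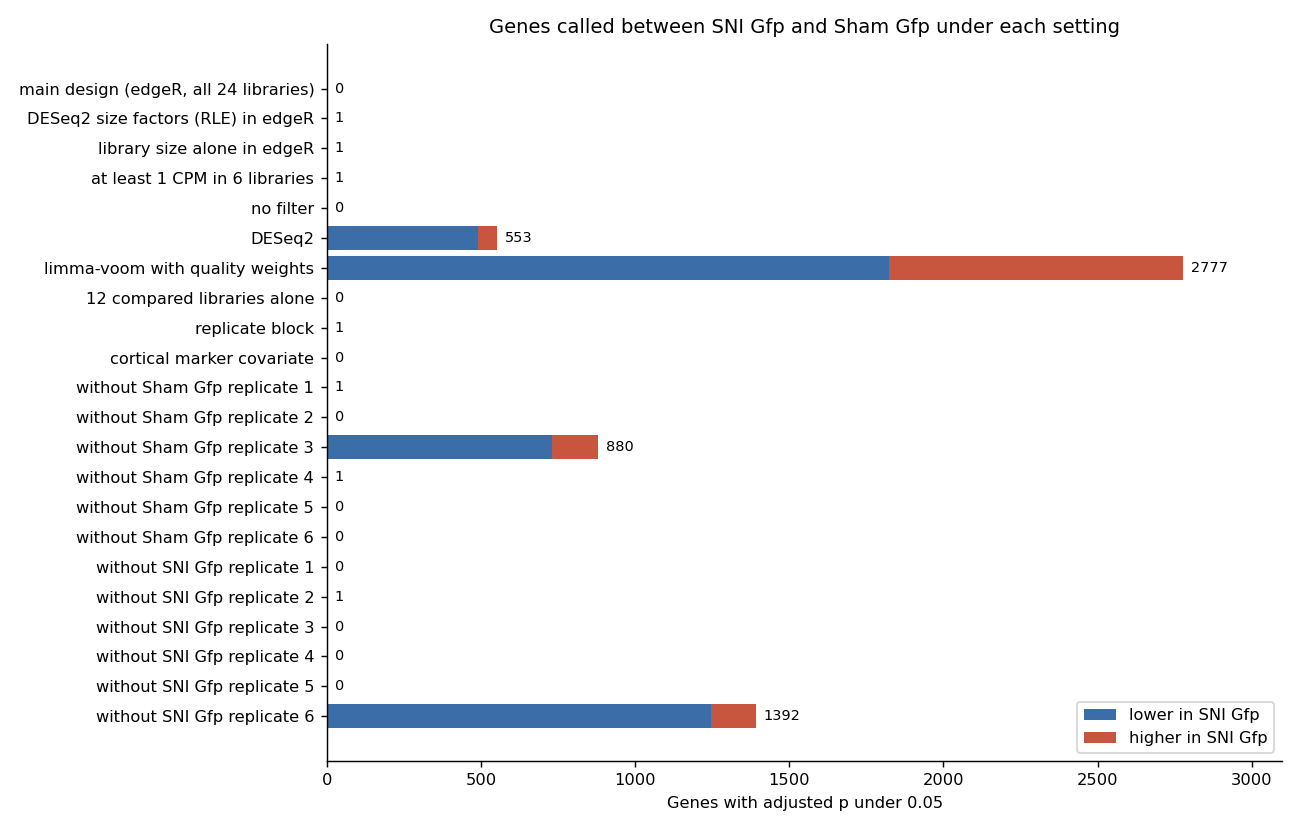
Genes with an adjusted p under 0.05 between SNI Gfp and Sham Gfp under each setting, as bars split into lower and higher in SNI Gfp, with the total at the end of each bar. The edgeR test on all libraries made 0 calls, DESeq2 553, limma-voom 2777, and edgeR made 1392 without SNI Gfp 6 and 880 without Sham Gfp 3.

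A part of the interferon genes hold the same short sequence before their start. The interferon-stimulated response element, bound by STAT and IRF complexes, has a core of GAAA, any 2 bases and GAAA again, which on the other strand reads TTTC, any 2 bases and TTTC. In RefSeq promoter windows of 300 bases (250 before to 50 after a gene's start, GRCm38.p6), searched on both strands, 3.44% of 32851 windows held the core, and 3.84% of the tested genes with a window did. It was present in 16 of 39 interferon-induced effectors with a window (41.0%), in 9 of 9 interferon-gamma inducible GTPases and in 5 of 18 genes of class I presentation (27.8%), but in 2 of 12 kinases, STATs and IRFs (16.7%) and 1 of 8 class II genes (12.5%). Lists outside the pathway also exceeded the share of all windows, with 3 of 13 neurotrophins and growth factors (23.1%), 4 of 18 ribosomal protein genes (22.2%) and 4 of 19 immediate early genes (21.1%). The gamma-activated site TTCNNNGAA, bound by STAT dimers, was in 8.3% of all windows and in 6 of the 9 GTPases (66.7%), and in 1 of 18 class I genes (5.56%). A match is a description of letters and does not show binding. The 250 bases before the start are shown for 4 genes from different steps of the pathway, read 5′ to 3′ on the gene's strand with the core in capitals. They are Stat2 (chr10:128270248-128270497, plus strand), a signalling factor, Rsad2 (chr12:26456453-26456702, minus strand), an antiviral effector, and Gbp7 (chr3:142530086-142530335, plus strand) and Irgm1 (chr11:48871421-48871670, minus strand), interferon-gamma inducible GTPases. In Irgm1 there are 2 overlapping matches.
Stat2: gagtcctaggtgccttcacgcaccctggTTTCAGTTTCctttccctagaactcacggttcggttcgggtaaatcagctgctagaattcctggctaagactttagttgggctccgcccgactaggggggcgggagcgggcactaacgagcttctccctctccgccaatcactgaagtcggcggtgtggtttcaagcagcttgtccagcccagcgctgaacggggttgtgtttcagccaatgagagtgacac
Rsad2: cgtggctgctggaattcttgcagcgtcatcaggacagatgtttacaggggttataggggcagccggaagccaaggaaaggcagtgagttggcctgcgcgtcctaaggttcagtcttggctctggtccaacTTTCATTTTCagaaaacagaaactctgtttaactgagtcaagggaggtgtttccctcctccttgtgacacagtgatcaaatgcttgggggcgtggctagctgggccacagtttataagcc
Gbp7: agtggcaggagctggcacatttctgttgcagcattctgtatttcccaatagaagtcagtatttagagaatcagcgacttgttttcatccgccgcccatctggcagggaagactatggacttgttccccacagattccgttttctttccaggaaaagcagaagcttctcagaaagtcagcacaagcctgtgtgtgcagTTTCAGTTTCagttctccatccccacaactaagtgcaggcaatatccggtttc
Irgm1: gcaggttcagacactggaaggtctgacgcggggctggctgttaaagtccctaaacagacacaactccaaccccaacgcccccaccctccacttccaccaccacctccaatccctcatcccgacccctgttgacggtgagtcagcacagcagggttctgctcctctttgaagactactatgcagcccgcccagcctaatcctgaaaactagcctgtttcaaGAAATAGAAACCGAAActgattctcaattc

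Sensors of foreign nucleic acid had lower means in SNI Gfp. Of 19 tested genes of nucleic acid sensing, 16 were lower at an unadjusted p under 0.05 (8.45% of all genes) and 0 higher. The median log2 fold change was -0.99. Ddx58, the cytosolic RNA sensor RIG-I, ranged from 15.1 to 37.2 CPM in Sham Gfp with a median of 29.0. In SNI Gfp it ranged from 5.36 to 24.2 with a median of 8.84. SNI Gfp 1, 2, 3 and 5, at 5.36 to 10.8, lay below every Sham Gfp library, and SNI Gfp 4 and 6, at 15.8 and 24.2, lay within the Sham Gfp range. Its log2 fold change was -1.29 (SE 0.29, edgeR adjusted p = 0.0929). Dhx58, a regulator of that sensor, and the endosomal RNA receptor Tlr7 showed the same order of libraries, with log2 fold changes of -1.62 (SE 0.36) and -1.28 (SE 0.30). The DNA sensor Cgas differed less, at -0.74 (SE 0.18), from 4.15 ± 1.07 CPM (SD, n = 6) to 2.48 ± 0.774 (SD, n = 6). For Aim2, a DNA sensor of the inflammasome, the value of -0.52 is uncertain, since its span overlaps the more abundant Cadm3.

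The interferons themselves were barely detected. Of 19 interferon and interferon receptor genes, 13 were under the count filter, among them Ifnb1 with 1 count in all Sham Gfp libraries together and 2 in all SNI Gfp libraries. Ifng, the ligand made by T and NK cells, had 0.151 to 1.28 CPM in Sham Gfp. It was listed at 0 in SNI Gfp 1, 2, 3 and 5 and stood at 0.382 and 0.672 CPM in SNI Gfp 4 and 6, so its presence followed the same split. Of the 6 tested genes, 4 were lower at an unadjusted p under 0.05. Ifngr1, a chain of the receptor for interferon gamma, was lower by a log2 fold change of -0.43 (SE 0.11), and Ifnar1, a chain of the type I receptor, by -0.12 (SE 0.04).

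Among the kinases, STATs and IRFs, 11 of 13 genes were lower at an unadjusted p under 0.05 (8.45% of all genes), with a median of -0.62. Stat2, which carries type I signals to the nucleus, ranged from 54.0 to 160 CPM in Sham Gfp with a median of 108. In SNI Gfp, Stat2 stood at 26.2, 29.3, 32.5, 66.4, 24.7 and 94.7 CPM in libraries 1 to 6. Libraries 1, 2, 3 and 5 were below the whole Sham Gfp range and libraries 4 and 6 within it, and the log2 fold change was -1.26 (SE 0.29, edgeR adjusted p = 0.0929). The kinase Jak1, which carries the signal of these receptors and was chosen after its values were seen, did not follow them. It lay at 146 to 159 CPM in Sham Gfp and 143 to 161 in SNI Gfp, a log2 fold change of -0.04 (SE 0.04). Irf7, the factor that amplifies type I interferon, had a log2 fold change of -2.06 (SE 0.55), uncertain because its span overlaps the more abundant Phrf1.

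Antiviral effectors had lower means in SNI Gfp. Of 47 tested interferon-induced effectors, 44 were lower at an unadjusted p under 0.05 and 0 higher, with a median of -1.56, and 39 of the 47 had at least 4 SNI Gfp libraries below the lowest Sham Gfp library, as 7.42% of all genes did. DESeq2 called 37 of them lower, against 2.06% of all genes. Without SNI Gfp 6, edgeR called 44 of the 47 lower (5.22% of all genes), and without Sham Gfp 3 it called 38 (3.05%). Leaving out a library through which the groups overlap widens the gap, so these counts are not separate support. Eif2ak2, the kinase PKR that halts translation on double-stranded RNA, had 42.0, 76.0, 26.5, 45.7, 57.8 and 58.5 CPM in Sham Gfp 1 to 6. In SNI Gfp 1 to 6 it had 13.5, 10.3, 16.1, 27.0, 11.6 and 43.3 CPM. The groups overlapped through Sham Gfp 3 on one side and SNI Gfp 4 and 6 on the other. Its log2 fold change was -1.33 (SE 0.28, edgeR adjusted p = 0.0929, exact permutation p = 0.0108 over the 12 libraries, two-sided).

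Rsad2, the antiviral enzyme viperin, had a median of 19.2 CPM in Sham Gfp and 3.90 in SNI Gfp, a log2 fold change of -1.54 (SE 0.35). Ifit2, which binds foreign RNA, had a median of 45 CPM in Sham Gfp and 9.72 in SNI Gfp, a log2 fold change of -1.57 (SE 0.35). Mx2, a GTPase that restricts viruses, ranged from 7.86 to 25.7 CPM in Sham Gfp, and 5 of 6 SNI Gfp libraries were below that range, with SNI Gfp 6 at 14.7 within it. The nucleotide kinase Cmpk2 differed by less but more evenly, from 44.2 ± 5.13 CPM (SD, n = 6) to 32.1 ± 5.10 (SD, n = 6), also with 5 of 6 SNI Gfp libraries below every Sham Gfp library.

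Interferon-gamma inducible GTPases, which attack vacuoles of intracellular pathogens, had the most negative median of these lists, -1.69, and 15 of 16 were lower at an unadjusted p under 0.05. DESeq2 called 1 of them lower, against 2.06% of all genes. Irgm1 stood at 121, 270, 87.8, 150, 149 and 186 CPM in Sham Gfp 1 to 6. It stood at 7.65, 8.23, 15.9, 94.7, 9.97 and 161 CPM in SNI Gfp 1 to 6, so 4 libraries held at most 15.9 CPM and the other 2 lay within the Sham Gfp range. With that split inside the group, its log2 fold change of -1.69 had an SE of 0.57 and an adjusted p of 0.162 with edgeR, and it was -2.53 without SNI Gfp 6. Gbp7 showed the same order, with a median of 75.6 CPM in Sham Gfp and 8.89 in SNI Gfp (log2 fold change -1.70, SE 0.50).

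The inhibitors that interferon itself induces were lower too. Of 8 such genes, 7 were lower at an unadjusted p under 0.05, with a median of -1.41. Usp18, which removes ISG15 and blocks the type I receptor, had a median of 11.8 CPM in Sham Gfp and 2.05 in SNI Gfp, a log2 fold change of -1.63 (SE 0.42). Socs1, an inhibitor of JAK kinases, had a log2 fold change of -1.34 (SE 0.40).

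**Figure D2:**
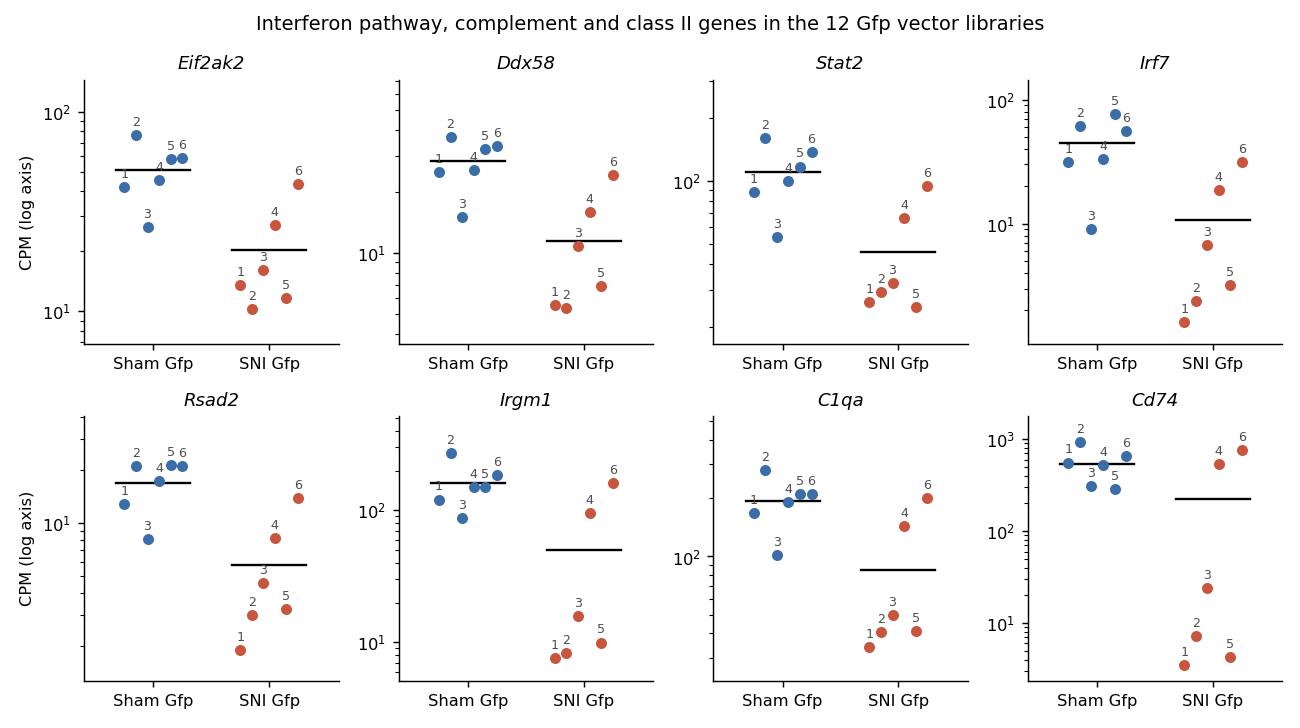
CPM of 8 genes in each Sham Gfp and SNI Gfp library on log axes, numbered by replicate, with bars at the group means (n = 6 each). In every panel SNI Gfp 1, 2, 3 and 5 lie below all Sham Gfp libraries and SNI Gfp 4 and 6 lie within or near the Sham Gfp range.

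Antigen presentation followed the same libraries. All 20 tested genes of class I presentation were lower at an unadjusted p under 0.05 (8.45% of all genes), with a median of -1.33. In all 20 at least 4 SNI Gfp libraries were below the lowest Sham Gfp library (7.42% of all genes). Tapbp, which loads peptides onto class I molecules, had 122 ± 35.5 CPM (SD, n = 6) in Sham Gfp and 71.9 ± 31.6 (SD, n = 6) in SNI Gfp, and the log2 fold change was -0.76 (SE 0.20, edgeR adjusted p = 0.0929). Psme2, a proteasome activator, had a log2 fold change of -0.67 (SE 0.17). For class II presentation, which belongs to microglia and other antigen-presenting cells, 7 of 12 genes were lower at an unadjusted p under 0.05 (8.45% of all genes). The median was -1.23, and -1.94 without SNI Gfp 6. Cd74, the invariant chain, was chosen after its values were seen because its level is far apart between libraries. It stood at 558, 932, 307, 528, 285 and 652 CPM in Sham Gfp 1 to 6 and at 3.52, 7.16, 24, 532, 4.26 and 761 CPM in SNI Gfp 1 to 6. The 4 low libraries had at most 24 CPM, and SNI Gfp 4 and 6 lay inside the Sham Gfp range. The 2 levels within SNI Gfp gave a log2 fold change of -1.29 with an SE of 0.93, and an adjusted p of 0.665 with edgeR. Ctss, the protease that trims Cd74, had a median of 331 CPM in Sham Gfp and 87.3 in SNI Gfp (log2 fold change -1.15, SE 0.30).

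Microglial genes differed to a smaller degree. Among 19 genes of homeostatic microglia, 13 were lower and 2 higher at an unadjusted p under 0.05, with a median of -0.35. Csf1r, the receptor that microglia need to survive, ranged from 168 to 273 CPM in Sham Gfp with a median of 194. In SNI Gfp it ranged from 89.8 to 210 with a median of 105. Again SNI Gfp 1, 2, 3 and 5 were below every Sham Gfp library, and the log2 fold change was -0.69 (SE 0.17). Tmem119, a microglial marker, had a log2 fold change of -0.68 (SE 0.16). Fcrls, another marker of resident microglia that was chosen after its values were seen, went the other way. It had 1.28 to 2.35 CPM in Sham Gfp and 4.68, 5.08 and 3.30 CPM in SNI Gfp 2, 3 and 5, while SNI Gfp 1, 4 and 6 lay at 1.92, 1.17 and 1.74, for a log2 fold change of 0.82 (SE 0.27, edgeR adjusted p = 0.142). The list of homeostatic markers therefore did not have a single direction.

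Genes of activated and disease-associated microglia had a median of -0.45, and 11 of 20 were lower at an unadjusted p under 0.05. Axl, a receptor for dying cells, had a log2 fold change of -0.63 (SE 0.17). Fc receptors and myeloid surface genes had a median of -1.04, with 15 of 20 lower (8.45% of all genes). Fcer1g, the signalling chain of Fc receptors, had 22.9 ± 7.94 CPM (SD, n = 6) in Sham Gfp and 10.3 ± 7.06 (SD, n = 6) in SNI Gfp, and the log2 fold change was -1.14 (SE 0.30). Complement had a median of -1.19, with 8 of 17 lower (8.45% of all genes). C1qa, C1qb and C1qc, the subunits of C1q, had medians of 200, 118 and 124 CPM in Sham Gfp and 45.6, 26.6 and 26.6 in SNI Gfp, with log2 fold changes of -1.19, -1.20 and -1.25. For all 3 the 4 low libraries were below every Sham Gfp library.

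Cytokines and inflammasome genes had a median of -0.90, with 18 of 21 lower at an unadjusted p under 0.05 and 0 higher. Casp1, the inflammasome protease, had a median of 7.43 CPM in Sham Gfp and 1.79 in SNI Gfp, a log2 fold change of -1.35 (SE 0.36), and its adaptor Pycard had -0.90 (SE 0.22). Il1b was low everywhere, at 0.332 to 2.84 CPM in Sham Gfp and 0.0356 to 1.04 in SNI Gfp, and Il1a overlaps the gene Gm14023, which makes its value of -1.15 uncertain. Chemokines and their receptors had a median of -1.46, with 12 of 19 lower, and a median of -2.31 without SNI Gfp 6. Ccl7, a monocyte attractant, had 0.151 to 2.94 CPM in Sham Gfp and 0.0306 to 1.01 in SNI Gfp.

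Lymphocyte genes were among those that varied with the same libraries. Of 23 tested genes of T and NK cells, 23 had a lower mean in SNI Gfp (as 46.7% of all genes did), 8 were lower at an unadjusted p under 0.05, and the median was -1.33. Klrk1, the activating receptor NKG2D, stood at 5.30, 11.7, 1.3, 2.44, 6.43 and 7.25 CPM in Sham Gfp 1 to 6. In SNI Gfp 1 to 6 it stood at 0.0356, 0.153, 0.306, 2.84, 0 and 5.43 CPM. Lck, the kinase of the T cell receptor, was less split, with 5.26 to 16.5 CPM against 4.02 to 10.2 and a log2 fold change of -0.77 (SE 0.23). The list mean of T and NK genes, in log2 CPM, lay at 0.61 to 2.78 in Sham Gfp, at -1.37 to -1.06 in SNI Gfp 1, 2, 3 and 5, and at 1.80 and 2.14 in SNI Gfp 4 and 6. The list means of interferon effectors and of GTPases split at the same libraries, and the part of lymphocyte RNA in those differences was not tested.

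B cell and antibody genes had a median of -1.22, with 5 of 12 lower at an unadjusted p under 0.05 (8.45% of all genes). The median was -2.16 without SNI Gfp 6 and -0.61 without Sham Gfp 1. Cd22, a B cell receptor regulator, had 0.725 to 3.45 CPM in Sham Gfp and 0.245 to 1.60 in SNI Gfp (log2 fold change -1.60, SE 0.42). Jchain, which joins secreted antibodies and was chosen after its values were seen, varied within groups as much as between them, with 205 and 112 CPM in Sham Gfp 1 and 4, 19.2 to 34.4 in the other Sham Gfp libraries, 157 in SNI Gfp 6, 23.6 in SNI Gfp 4 and 0.748 to 1.41 in the other SNI Gfp libraries. Among the largest fitted differences at an unadjusted p under 0.01, Klre1 and Ncr1, receptors of NK cells, had log2 fold changes of -2.67 (SE 0.59) and -2.44 (SE 0.64). Their mean levels in Sham Gfp were 1.31 and 1.06 CPM, so these folds rest on few counts.

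Cell cycle genes had a median of -1.02, and 12 of 15 were lower at an unadjusted p under 0.05. Cdk1, the mitotic kinase, had 0.484 to 3.32 CPM in Sham Gfp and 0.122 to 1.18 in SNI Gfp (log2 fold change -1.79, SE 0.48). Top2a, a marker of dividing cells, had 4.50, 13.1, 1.60, 4.57, 15.7 and 9.84 CPM in Sham Gfp 1 to 6, and 5.51 and 5.41 in SNI Gfp 4 and 6 against 1.18 to 1.74 in the other SNI Gfp libraries. The mean log2 CPM of the list was 0.67 to 2.36 in Sham Gfp, lowest in Sham Gfp 3, 0.37 to 0.62 in SNI Gfp 1, 2, 3 and 5, and 1.53 and 1.41 in SNI Gfp 4 and 6, so it separated the same libraries as the interferon genes. Its part in those differences was not tested.

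**Figure D3:**
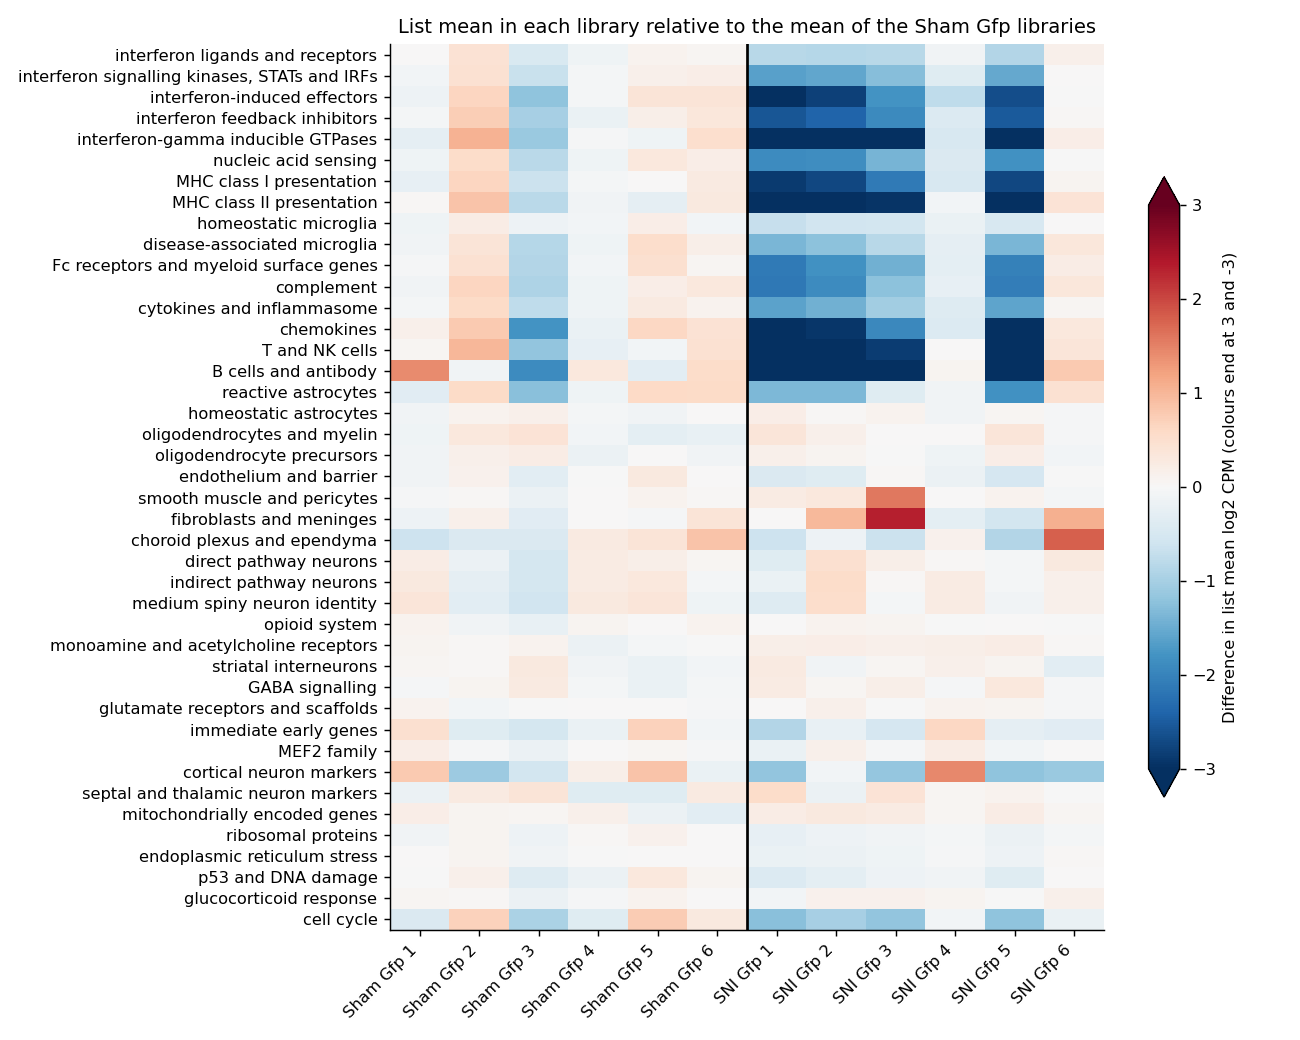
Mean log2 CPM of each gene list in each library, as the difference from the mean of the 6 Sham Gfp libraries, blue for lower and red for higher, with the vertical line between the groups. Immune lists are lower in SNI Gfp 1, 2, 3 and 5 and close to Sham Gfp in SNI Gfp 4 and 6, while neuronal lists show no such split.

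Astrocyte genes divided by state. Of 19 genes of reactive astrocytes, 6 were lower and 1 higher at an unadjusted p under 0.05, with a median of -0.67, or -1.06 without SNI Gfp 6. Osmr, a receptor of the interleukin 6 family, had 14.0 ± 5.18 CPM (SD, n = 6) in Sham Gfp and 7.62 ± 4.74 (SD, n = 6) in SNI Gfp, and the log2 fold change was -0.87 (SE 0.33). Gfap, the astrocyte filament protein that was chosen after its values were seen, had a median of 351 CPM in Sham Gfp and 137 in SNI Gfp, where SNI Gfp 4 and 6 held 330 and 422 CPM. Homeostatic astrocyte genes had a median of 0.06, with 3 of 18 lower and 2 higher (8.45% and 3.88% over all genes). The water channel Aqp4 had a log2 fold change of -0.42 (SE 0.17), whereas the gap junction gene Gjb6 had 0.59 (SE 0.22), with 70.8 CPM in SNI Gfp 3.

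Oligodendrocyte and myelin genes had a median of 0.13, and 17 of 18 had a higher mean in SNI Gfp (as 53.3% of all genes did). Only 1 was higher at an unadjusted p under 0.05, near the share of 3.88% over all genes. That gene was Cldn11, a tight junction protein of myelin, at 90.4 ± 12.6 CPM (SD, n = 6) in Sham Gfp and 109 ± 9.05 (SD, n = 6) in SNI Gfp, and the log2 fold change was 0.27 (SE 0.11). For oligodendrocyte precursors, 0 of 9 genes passed in either direction. Endothelial and barrier genes had a median of -0.04, with 5 of 17 lower, against 8.45% of all genes. These included the leukocyte adhesion molecules Vcam1 and Icam1, with log2 fold changes of -0.93 (SE 0.28) and -1.25 (SE 0.41). Kdr, the receptor for vascular growth factor, was lower in all 6 SNI Gfp libraries, at 13.6 to 17 CPM against 18 to 25.6, with a log2 fold change of -0.35 (SE 0.13, edgeR adjusted p = 0.195).

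The most positive medians, for fibroblast and for smooth muscle genes, rested largely on SNI Gfp 3. Smooth muscle and pericyte genes had a median of 0.68, with 8 of 17 higher at an unadjusted p under 0.05 and 0 lower. Acta2, smooth muscle actin, had 3.41 to 4.74 CPM in Sham Gfp, 66.8 in SNI Gfp 3 and 3.27 to 7.97 in the other SNI Gfp libraries. Without SNI Gfp 3 the median of the list was 0.04. Fibroblast and meningeal genes had a median of 0.86, with 8 of 14 higher, and 0.27 without SNI Gfp 3. Ogn, a matrix proteoglycan of fibroblasts whose span overlaps Cenpp, had 0.426 to 1.69 CPM in Sham Gfp and 5.17, 17.5 and 4.68 CPM in SNI Gfp 2, 3 and 6. Choroid plexus genes had a median of 0.19, with 4 of 12 higher, and -0.24 without SNI Gfp 6. Ttr, the thyroid hormone carrier of the choroid plexus, stood at 810 CPM in SNI Gfp 6 and at 0.103 to 7.65 in the other 11 libraries, and its log2 fold change of 5.41 (SE 1.71) became -1.64 without SNI Gfp 6. Blood cell genes (4 tested) had a median of 0.35, or 0.18 without SNI Gfp 4, with 0 at an unadjusted p under 0.05. Septal and thalamic neuron markers had a median of 0.28, with 1 of 11 lower and 1 higher (8.45% and 3.88% over all genes). The median ran from 0.04 without SNI Gfp 1 to 0.43 without Sham Gfp 3. On immune genes SNI Gfp 3 was low and SNI Gfp 6 high, and the part of bordering tissue in the immune differences was not tested.

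Genes of medium spiny neurons showed no such differences. Of 22 genes of medium spiny neuron identity, 0 passed an unadjusted p under 0.05 in either direction, and the median was 0.05. The direct pathway genes (8, median 0.07) and the indirect pathway genes (6, median 0.10) also had 0. Drd1 had 224, 140, 96.6, 218, 232 and 170 CPM in Sham Gfp 1 to 6 and 111, 274, 162, 208, 151 and 204 CPM in SNI Gfp 1 to 6. The groups overlapped almost entirely, and the log2 fold change was 0.04 with an SE of 0.30. Drd2 had 0.08 (SE 0.25), the striatal phosphatase inhibitor Ppp1r1b 0.11 (SE 0.22), and the peptide precursors Penk, Tac1 and Pdyn 0.12 (SE 0.22), 0.09 (SE 0.34) and 0.02 (SE 0.40). These standard errors leave room for differences of a size that the data could not resolve.

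Among receptors and channels few genes passed, but most means were slightly higher in SNI Gfp. Of 24 monoamine and acetylcholine receptors, 30 glutamate receptors and scaffolds, 19 GABA genes, 23 potassium channels and 24 sodium, calcium and HCN channels, 0 passed an unadjusted p under 0.05, with medians of 0.15, 0.06, 0.10, 0.06 and 0.09. The mean was higher in SNI Gfp in 23 of the 24 monoamine and acetylcholine receptors, 18 of the 19 GABA genes and 21 of the 24 sodium, calcium and HCN channels, as in 53.3% of all genes. Of 23 synaptic adhesion genes, which join both sides of the synapse, 23 had a higher mean, 1 was higher at an unadjusted p under 0.05, and 4 had at least 4 SNI Gfp libraries above the highest Sham Gfp library, with a median of 0.09. Of 8 opioid genes, 1 was lower at an unadjusted p under 0.05, near the share of 8.45% over all genes. That gene was Pomc, whose Sham Gfp mean rested on 4.88 CPM in Sham Gfp 6 against 1.39 to 1.98 in the others. The mu opioid receptor Oprm1 had 77.8 ± 6.55 CPM (SD, n = 6) in Sham Gfp and 82.1 ± 15.2 (SD, n = 6) in SNI Gfp. Immediate early genes, induced by neuronal activity, had a median of -0.24. Of 24, 1 was lower and 1 higher, below or near the shares of 8.45% and 3.88% over all genes. The median ran from -0.46 without SNI Gfp 4 to -0.06 without Sham Gfp 5. Crem, a cAMP-responsive factor, had -0.22 (SE 0.07), and Jund 0.10 (SE 0.05).

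Mef2c, the activity-dependent transcription factor under study, had 212, 179, 149, 139, 175 and 161 CPM in Sham Gfp 1 to 6 and 133, 221, 152, 213, 135 and 153 CPM in SNI Gfp 1 to 6. The groups overlapped, with a log2 fold change of -0.01 (SE 0.25). Mef2a, Mef2b and Mef2d had log2 fold changes of -0.04 (SE 0.08), under 0.01 in size (SE 0.06) and 0.08 (SE 0.08). Of 15 cofactors of MEF2, 1 passed an unadjusted p under 0.05, no more than the share of 12.3% over all genes. That gene was Carm1, an arginine methyltransferase and coactivator, with 76.0 to 79.8 CPM in Sham Gfp and 82.2 to 87.8 in SNI Gfp. Carm1 was higher in all 6 SNI Gfp libraries without overlap, as 0.16% of all genes were. Its log2 fold change was 0.12 (SE 0.03, edgeR adjusted p = 0.0929).

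Cortical neuron markers stand for cortex, which lies near the accumbens. Of 17 genes, 0 passed an unadjusted p under 0.05, and the median log2 fold change was -0.04. Leaving out 1 library gave -0.53 without SNI Gfp 4 to 0.13 without Sham Gfp 1, and limma-voom gave -0.42. The list mean, in log2 CPM, was 3.15 to 5.09 in Sham Gfp with a median of 4.225. In SNI Gfp it was 3.02 to 5.67 with a median of 3.096. Slc17a7, the vesicular glutamate transporter of cortical neurons, varied from 8.50 to 318 CPM in Sham Gfp and from 1.60 to 558 in SNI Gfp, where SNI Gfp 4 had the highest value of all 12 and SNI Gfp 1, 3, 5 and 6 had 1.60 to 5.79. Of the libraries low on Slc17a7, SNI Gfp 1, 3 and 5 were low on interferon genes. SNI Gfp 6 at 4.73 CPM and Sham Gfp 2 at 8.50 CPM were high on them. With the mean of the cortical markers as a covariate, edgeR made 0 calls, and the log2 fold change of Eif2ak2 was -1.32 against -1.33 without it. The median of the interferon effectors was -1.52 against -1.56. For B cell genes the median was -0.71 against -1.22, and for immediate early genes -0.07 against -0.24. The covariate fit gives values beside the main fit and is not a test of a cause. The part of cortical RNA in the immune differences was not tested.

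**Figure D4:**
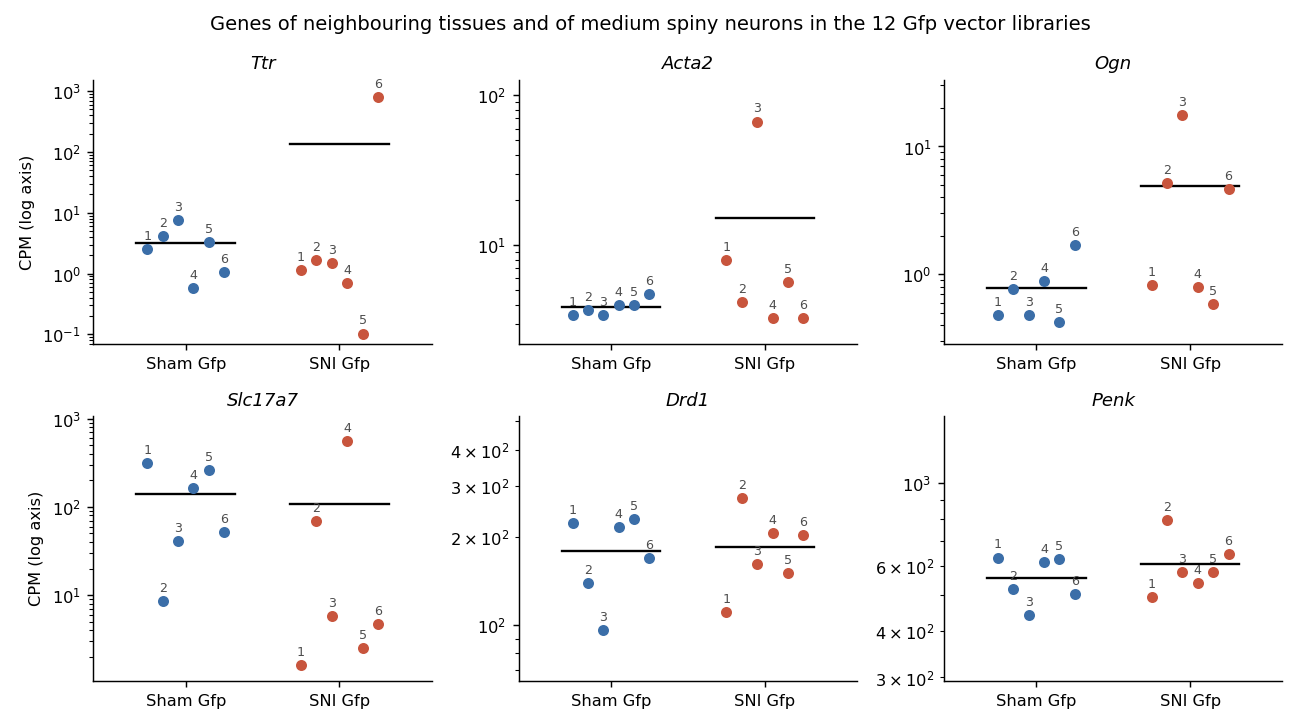
CPM of 6 genes in each Sham Gfp and SNI Gfp library on log axes, numbered by replicate, with bars at the group means (n = 6 each). Ttr is high in SNI Gfp 6, Acta2 in SNI Gfp 3, Ogn in SNI Gfp 2, 3 and 6 and Slc17a7 in SNI Gfp 4, and Drd1 and Penk overlap between the groups.

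Housekeeping groups differed by little. Of 26 ribosomal protein genes, 26 had a lower mean in SNI Gfp, as 46.7% of all genes did, with a median of -0.14. At an unadjusted p under 0.05, 16 were lower, as 8.45% of all genes were. Rps9 had 129 to 167 CPM in Sham Gfp and 113 to 142 in SNI Gfp (log2 fold change -0.25, SE 0.07). Of 13 mitochondrially encoded genes, 13 had a higher mean, as 53.3% of all genes did, with a median of 0.13. At an unadjusted p under 0.05, 6 of them were higher, as 3.88% of all genes were. Of 23 nuclear genes of oxidative phosphorylation 1 was higher, near that share. Among 19 genes of endoplasmic reticulum stress 5 were lower, against 8.45% of all genes, as for Sdf2l1, a chaperone partner, at -0.51 (SE 0.14). Among 17 genes of the p53 response 5 were lower, against the same share, as for Ccng1 at -0.25 (SE 0.09). Of 16 glucocorticoid response genes, 1 was lower (Nfkbia, -0.44, SE 0.14), no more than the share of 8.45% over all genes. Another 3 were higher (among them the metallothionein Mt1, 0.15, SE 0.06), against 3.88% of all genes. Of 19 cholesterol synthesis genes and 13 heat shock genes, 0 passed.

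The smallest p-value belonged to Sult6b1, a sulfotransferase gene on chromosome 17 (78883938 to 78906992, mm10), next to Eif2ak2 (78852564 to 78882573). It had 3.38, 5.30, 3.20, 3.11, 4.33 and 4.17 CPM in Sham Gfp 1 to 6 and 2.06, 2.75, 2.04, 2.16, 2.44 and 2.80 CPM in SNI Gfp 1 to 6. All 6 SNI Gfp libraries, SNI Gfp 4 and 6 included, were below the lowest Sham Gfp library. Its log2 fold change was -0.72 (SE 0.11, edgeR adjusted p = 0.0517, exact permutation p = 0.00216 over the 12 libraries, two-sided, the smallest that 924 assignments can give). Any gene whose groups do not overlap gets this permutation p. Sult6b1, like Eif2ak2 above, was named for its small p-value. The permutation p reuses the values that picked the gene and is not separate support. Sult6b1 passed the threshold in every setting that made 1 call.

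Gpr84, a receptor for fatty acids on activated microglia, also showed no overlap, with 2.18 to 4.60 CPM in Sham Gfp and 0.641 to 2.10 in SNI Gfp, a log2 fold change of -1.29 (SE 0.24). Over all genes, the groups did not overlap in 34 genes that were lower (0.143%) and 38 that were higher (0.16%). The following 4 were chosen after their values were seen because they were of moderate abundance. P2rx4, an ATP-gated channel of microglia and neurons, had 24.4 to 34.2 CPM in Sham Gfp and 17 to 23.9 in SNI Gfp (log2 fold change -0.43, SE 0.10). Itpr2, the calcium release channel of astrocytes, had 40.3 to 48.1 against 33.8 to 40.1 CPM (-0.27, SE 0.06). The ribosomal gene Rps24 had 117 to 132 against 102 to 113 CPM (-0.20, SE 0.05), and the zinc finger gene Zfp574 had 52.0 to 56.7 against 58.6 to 63.8 CPM (0.17, SE 0.04). In P2rx4, Itpr2 and Rps24 SNI Gfp 6 was the highest SNI Gfp library, at 40.1 CPM in Itpr2 next to the lowest Sham Gfp library. That the groups do not overlap was fixed by this choice of genes. Of the other genes with the smallest p-values, the plasminogen receptor Plgrkt, the membrane gene Cmtm6, the nucleoside transporter Slc29a3 and the cell division gene Mitd1 were lower by log2 fold changes of -0.37, -0.42, -0.70 and -0.53, each with 5 of 6 SNI Gfp libraries below every Sham Gfp library. H2-T10, Slfn5os and Tpt1-ps3 complete the 15 smallest; Slfn5os overlaps Slfn5 and H2-T10 overlaps Gm7030, and Tpt1-ps3 is a pseudogene copy of Tpt1, so their counts are uncertain.

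With the Mef2c vector, the medians for the same surgery were 0.05 for interferon effectors, under 0.01 for the GTPases, -0.10 for class I presentation, -0.23 for class II presentation and -0.83 for B cell genes, and 3816 genes (16.1%) had an unadjusted p under 0.05. The test of the difference between vectors, the interaction of surgery and vector, gave 0 genes (0.0%) at an adjusted p under 0.05 and 3529 (14.9%) at an unadjusted p under 0.05 with edgeR, 1 gene with DESeq2 and 4074 with limma-voom. The unadjusted count, 1840 negative and 1689 positive, was 809 and 427 with the cortical marker covariate and 2400 and 3232 without Sham Gfp 3. Of the 47 effectors, 41 had an interaction p under 0.05 unadjusted. For Eif2ak2 the interaction was -1.39 on the log2 scale (SE 0.39, edgeR adjusted p = 0.313). The list mean of the effectors, in log2 CPM, was 1.34 to 1.73 in the 6 Sham Mef2c libraries and 1.3 to 1.92 in the 6 SNI Mef2c libraries. SNI Gfp 1, 2, 3 and 5, at 1.50, 1.68, 2.68 and 1.82, were near or somewhat above those 12 libraries, and Sham Gfp, at 3.27 to 5.12, and SNI Gfp 4 and 6, at 3.72 and 4.46, were far above them. On this list the libraries with high values were therefore the 6 Sham Gfp libraries and 2 of the SNI Gfp libraries, and not any library with the Mef2c vector.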

How the data were processed

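Bulk mRNA of mouse nucleus accumbens was read from 24 libraries in 4 groups of 6, of which SNI Gfp and Sham Gfp were compared. The authors deposited raw counts per gene, made with featureCounts on mm10 per the submitters' processing notes. The annotation, like the aligner and the versions, is not given in the sources used here. Deposited FPKM values served only to check the counts, and all equalled the count over the library total and the whole gene span within a relative tolerance of 1e-06. Counts took no account of strand and included introns, since in 877 of 877 same-strand and 1300 of 1300 opposite-strand nested pairs the outer gene had at least the counts of the inner one, so overlapping genes are named as uncertain. Symbols and spans came from GENCODE M21, which matched 55141 of 55401 gene IDs.

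Genes were kept by filterByExpr, libraries scaled by TMM, and the 4 group means of all 24 libraries were fitted in a robust quasi-likelihood model with edgeR 4.0.16 in R 4.3.3 (20 residual degrees of freedom). Tests were two-sided, with Benjamini-Hochberg adjustment over all 23738 genes. Single genes were also compared by exact permutation of log2 CPM (prior count 2). On simulated data, 167 of 200 genes changed 2-fold were recovered (83.5%) with 6 false calls among 23535 genes. The changed genes had a mean over 1 CPM. Counts were drawn separately for each gene and library, without the split within SNI Gfp or libraries that stand apart. The share recovered is therefore a check of the code and not the power of the real comparison.

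Leaving out predicted genes and, outside the lists, those with under 1 CPM in both groups, the text draws on the 15 smallest p-values, the most negative and most positive fold changes among unadjusted p under 0.01, up to 5 members of each list by p (or the 3 most abundant), the MEF2 family and 6 striatal markers. The 56 gene lists and the tests were chosen with earlier results of these data known. Replicate numbers do not pair the libraries. Alternatives were RLE or library size scaling, other filters, DESeq2 1.42.0, limma-voom with quality weights (limma 3.58.1), the 12 libraries alone, a replicate block, a cortical marker covariate and leaving out each of the 12 libraries. No pair of libraries within a group was a copy (smallest chi-square per degree of freedom 3.22). Genes under the filter, and members not tested, were left out, and a few genes are not reported here.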

Additional observations from a re-analysis of the deposited data

Results flagged for a closer look

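In groups of 6 libraries, a library was singled out where its gap to the nearest other library as a share of the group's range was over Dixon's 95% critical value. Of 370 groups tested, 34 met this. Chance alone gives about 1 in 20 only for independent groups that were not chosen by their values. Many of these genes were named from these same data, so the 34 cannot be set against that rate. SNI Gfp 6 was the library in 15 of them and SNI Gfp 3 in 6.

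SNI Gfp 6 was highest for the choroid plexus genes Ttr (810 CPM), Tmem72 (55.9), Kl (65.3), Slc4a5 (19.1), Kcne2 (11.3) and Aqp1 (10.7). It was also highest for the immune genes Jchain (157), Cfb (12.7), Ccl2 (1.71), Ccl7 (1.01) and Slfn4 (0.728), and for Plgrkt (41.1) and Mitd1 (21). It was lowest of its group in the list means of monoamine receptors, at 4.32 on the log2 CPM scale, and of nuclear oxidative phosphorylation, at 6.62.

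SNI Gfp 3 was highest for the smooth muscle genes Acta2 (66.8 CPM) and Myh11 (62.3), the matrix genes Fbln5 (20.8) and Ogn (17.5) and the transporter Slc22a2 (9.57), and in the smooth muscle list mean, at 3.77 on the log2 CPM scale. SNI Gfp 4 was highest for Slc17a7 (558 CPM).

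In Sham Gfp, library 2 was highest for Il1a (4.79 CPM), Klre1 (3.32), Ifng (1.28) and Psmb10 (33.1). Library 4 was lowest for Jak1 (146 CPM) and for the list means of heat shock (5.23) and sex chromosome genes (4.37), both in log2 CPM. Library 5 was highest for Slfn4 (8.50 CPM) and Kdr (25.6) and lowest for Igf2 (11.8). Library 6 was highest for Ogn (1.69 CPM) and Pomc (4.88).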

How the results depend on the processing

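The count of genes past an adjusted p of 0.05 was 0 in the edgeR test reported and stayed at 0 with no filter, with the 12 libraries alone and with the cortical covariate. It was 1 with RLE factors, with library size alone and with a minimum of 1 CPM, 553 with DESeq2 and 2777 with limma-voom. Leaving out 1 library gave 0 to 1392 calls, the most without SNI Gfp 6. With the replicate number as a block it was 1, and the numbers were not a pairing: same-numbered libraries correlated above 0.1 in 3 of 6 pairs. With that block, Pdyn stood at -0.024 and Mef2c at 0.016, opposite in sign to the fit without it. The interaction gave 1 call with DESeq2, 4074 with limma-voom and 0 to 269 when 1 library was left out, again the most without SNI Gfp 6. The log2 fold changes of small or library-bound genes turned sign. With limma-voom they were -0.30 for Ttr, -0.19 for Drd1, -0.10 for Drd2, -0.074 for Ppp1r1b, -0.16 for Tac1 and -0.14 for Pdyn. With the cortical covariate they were 0.011 for Mef2a and 0.085 for Mef2c, and for Mef2b they were 0.0040 with RLE, 0.0027 with a minimum of 1 CPM, 0.0052 with DESeq2 and 0.0056 with the 12 libraries alone. Leaving out 1 library gave -1.64 to 5.88 for Ttr, -0.14 to 3.46 for Slc4a5, -0.29 to 2.28 for Kcne2, -0.10 to 0.15 for Drd1, -0.034 to 0.18 for Drd2, -0.018 to 0.19 for Ppp1r1b, -0.078 to 0.22 for Tac1, -0.11 to 0.14 for Pdyn, -0.090 to 0.0073 for Mef2a, -0.019 to 0.027 for Mef2b, -0.10 to 0.072 for Mef2c and -3.06 to 0.033 for Slc17a7. The cause of these changes was not tested. Of 2697 gene values over 129 genes and 21 alternatives, 2311 kept their direction and side of the threshold, 339 kept their direction and passed it, and 47 turned sign. Of 1176 list medians, 1171 moved by less than the larger group SD of the list mean. This limit is wide for lists that split within SNI Gfp, so it says little about them. For the interferon-gamma inducible GTPases that SD was 2.27 in SNI Gfp. Their median of -1.69 was -3.50 with limma-voom and still counted as within the limit. Library size alone moved the split at an unadjusted p under 0.05 to 2271 lower and 589 higher. Depth limits genes near 1 CPM, such as Ifng, Klre1 and Ncr1.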
